A study of Mus musculus with 28 samples.

Results

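The 9 genes described here, H19, Igf2, Igf2r, Peg3, Mest, Cdkn1c, Plagl1, Grb10 and Ndn, are imprinted genes known for their part in growth. They were picked by name from 50600 genes in the expression table, with results of the same libraries already known, so their own levels and differences are given as a description and carry no test. All 9 were found once in the table, and all 9 reached the minimum mean of 1 TPM that put 13230 genes into the fit. The RNA-seq libraries came from mouse embryonic fibroblasts (MEFs), a primary culture that was reprogrammed towards induced pluripotent stem cells by retroviral Sox2, Klf4 and Oct4. There were 14 groups with 2 libraries each. The first pair of groups held MEFs without reprogramming factors, either left without treatment or treated with the p38 MAP kinase inhibitor SB203580 (p38i). The other 12 groups held factor-infected MEFs after 1, 3, 5 and 7 days in the chemically defined induction medium iCD1, as a control that the study calls DMSO, with the inhibitor during induction (p38i), or with the inhibitor before induction only (pre-p38i). The labels give every library as wild type and name iCD1 for the MEFs too, whereas the study's methods describe an Oct4-GFP reporter strain of MEFs, taken from mid-gestation embryos of either sex. The comparisons ask how blocking p38 in either window changes the cells on their way through reprogramming.

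An imprinted gene is transcribed mainly from the copy inherited from one parent, because a methylation mark laid down in the egg or the sperm persists after fertilisation. Igf2 is a secreted growth factor expressed from the paternal copy, and H19 is a non-coding RNA expressed from the neighbouring maternal copy. Both share enhancers and an imprinting control region where the insulator protein CTCF binds the unmethylated maternal allele. Igf2r removes Igf2 from the cell surface, Cdkn1c, Grb10 and Plagl1 restrain growth or the cell cycle, and Peg3, Mest and Ndn are expressed from the paternal copy. The table does not separate the alleles, so every value is the sum of both parental copies.

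The 9 genes lie at 7 regions of the genome, in the positions that the GRCm38 annotation GENCODE M21 also gives. H19 (chr7:142575529-142578143, minus strand) and Igf2 (chr7:142650766-142666816, minus strand) are neighbours, and Cdkn1c (chr7:143458339-143461050, minus strand) lies further along in the same cluster. Ndn (chr7:62346569-62350262, plus strand) and Peg3 (chr7:6703892-6730431, minus strand) are on the same chromosome. Mest is at chr6:30723547-30748465 on the plus strand, Plagl1 at chr10:13060504-13131694 on the plus strand, Grb10 at chr11:11930508-12038683 on the minus strand and Igf2r at chr17:12682406-12769664 on the minus strand. H19, Igf2 and Mest each host a microRNA on their own strand. The mature microRNAs are printed because they are the small RNAs that these transcripts can carry. Letters in capitals mark the seed, bases 2 to 8, and the sequences are RefSeq's for GRCm38.p6.
miR-675-3p in H19 (chr7:142577078-142577099, minus strand): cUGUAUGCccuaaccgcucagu
miR-675-5p in H19 (chr7:142577112-142577133, minus strand): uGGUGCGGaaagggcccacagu
miR-483-3p in Igf2 (chr7:142654932-142654952, minus strand): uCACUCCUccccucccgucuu
miR-483-5p in Igf2 (chr7:142654968-142654989, minus strand): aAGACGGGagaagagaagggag
miR-335-5p in Mest (chr6:30741314-30741336, plus strand): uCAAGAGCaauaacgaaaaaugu
miR-335-3p in Mest (chr6:30741354-30741375, plus strand): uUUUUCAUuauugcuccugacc
No seed is shared among the 6. The miR-675 pair lies within an exon of H19 in 3 of the 4 annotated transcripts that span it, while the miR-483 and miR-335 pairs lie in introns of Igf2 and Mest. The 3 hairpin genes were listed at 0 in every library of this poly(A)-selected RNA, which does not measure mature microRNAs.

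RefSeq's table of promoters, windows of 300 bases from 250 before to 50 after each start, held 13 windows for 7 of the 9 genes. They are shown here for the letters TGCCGC, the methylation-dependent motif of ZFP57, a zinc finger protein that keeps imprints, because genes of imprint maintenance are followed below. H19 and Cdkn1c had no window. Searched on both strands, TGCCGC was found in 5 of the 13 windows, of which 2 windows of Mest overlap, and in 11.6% of the 32851 windows of all genes. These letters hold a CpG, and the 5 windows hold 14 to 45 CpG each, against a median of 7 over all windows. The 2 shares are thus not on an equal footing, and enrichment was not tested. The AP-1 letters TGANTCA, the motif of factors downstream of stress kinases, were found in 0 of the 13 windows and in 7.81% of all windows. At that share 13 windows are too few to show an absence, which was not tested. The windows of Mest, Plagl1, Grb10 and Igf2 that hold TGCCGC are printed 5′ to 3′, with the match on either strand in capitals.
Mest (GRCm38.p6, chr6:30737800-30738099, plus strand): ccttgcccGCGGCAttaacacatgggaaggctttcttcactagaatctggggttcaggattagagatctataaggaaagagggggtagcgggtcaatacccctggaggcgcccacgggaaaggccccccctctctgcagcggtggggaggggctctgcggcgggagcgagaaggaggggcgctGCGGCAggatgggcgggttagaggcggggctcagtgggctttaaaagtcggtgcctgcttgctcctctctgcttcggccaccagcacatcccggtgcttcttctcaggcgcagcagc
Plagl1 (GRCm38.p6, chr10:13090582-13090881, plus strand): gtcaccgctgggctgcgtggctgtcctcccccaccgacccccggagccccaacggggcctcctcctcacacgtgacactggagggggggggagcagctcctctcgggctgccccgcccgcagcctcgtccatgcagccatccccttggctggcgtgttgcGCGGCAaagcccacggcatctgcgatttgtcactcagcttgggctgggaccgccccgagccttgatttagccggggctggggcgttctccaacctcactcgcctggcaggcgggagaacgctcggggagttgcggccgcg
Grb10 (GRCm38.p6, chr11:12037371-12037670, minus strand): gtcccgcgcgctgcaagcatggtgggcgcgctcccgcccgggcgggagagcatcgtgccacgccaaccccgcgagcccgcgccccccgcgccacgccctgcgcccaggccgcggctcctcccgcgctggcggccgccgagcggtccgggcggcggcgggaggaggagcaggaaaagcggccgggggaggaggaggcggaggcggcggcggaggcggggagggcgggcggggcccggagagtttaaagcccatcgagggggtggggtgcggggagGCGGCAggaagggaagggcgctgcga
Igf2 (GRCm38.p6, chr7:142661222-142661521, minus strand): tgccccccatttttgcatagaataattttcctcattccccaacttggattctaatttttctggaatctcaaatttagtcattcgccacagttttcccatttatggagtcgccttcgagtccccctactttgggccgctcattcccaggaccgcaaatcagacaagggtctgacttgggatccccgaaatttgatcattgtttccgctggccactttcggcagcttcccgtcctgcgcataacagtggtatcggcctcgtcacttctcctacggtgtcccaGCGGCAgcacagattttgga
A match is a description of the letters and not of a bound site.

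The values are read as TPM (transcript abundance corrected for transcript length and scaled to a fixed total) cut to whole numbers, a scale inferred from the values, so levels of different genes can be set side by side. Library totals ran from 991287 to 992537, and the read depth of each library is unknown. Nothing says that the 2 libraries of a group came from separate cultures, so their spread may be technical, and an exact permutation test of 2 against 2 libraries cannot reach the threshold. In bulk RNA, fewer expressing cells and less RNA per cell cannot be told apart. Fibroblast markers stood behind the label MEF: 9 of 10 were detected in untreated MEFs, with Lum at 0, at a summed level of 13481 and 12699, and all 8 pluripotency markers were at 0 there. At day 7 the 10 fibroblast markers summed to 3478 and 3668 under DMSO, 4614 and 4610 under p38i and 2580 and 2429 under pre-p38i. Over the same groups 6 epithelial markers summed to 491 and 461, 220 and 201, and 909 and 949. The 15 macrophage markers summed to 421 and 432, 328 and 277, and 131 and 123. The part of these shifts in the results below was not tested.

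In untreated MEFs, H19 and Igf2 far exceeded the other genes. The 9 genes summed to 4036 and 3918 TPM, of which H19 and Igf2 made up 84.9% and 83.9%. H19 stood at 1540 and 1497 and Igf2 at 1888 and 1790. Grb10, an adaptor protein that dampens insulin and IGF receptor signalling, followed at 321 and 325, and the other 6 genes lay between 17 and 90. Over the 14 groups the means of Igf2 spanned 25.8-fold and those of H19 21.7-fold, against 2.81-fold for Igf2r and 2.79-fold for Plagl1.

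**Figure D1:**
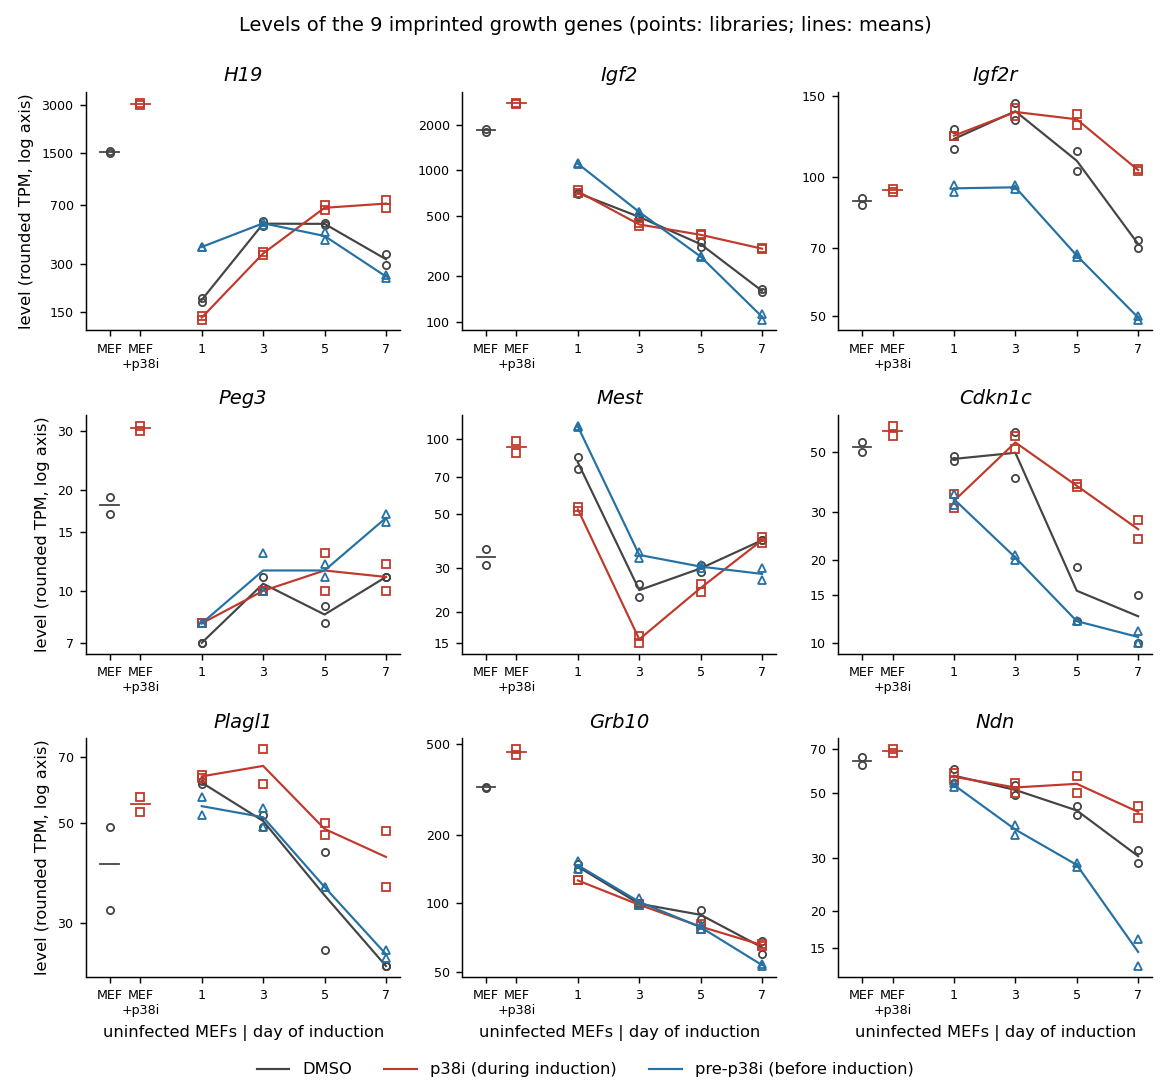
Level of each of the 9 genes in TPM on log axes, in uninfected MEFs without and with the inhibitor and on days 1, 3, 5 and 7 of induction under DMSO (grey circles), p38i (red squares) and pre-p38i (blue triangles). Points are the 2 libraries and lines join the means. H19, Igf2, Igf2r and Ndn end at day 7 highest under p38i and lowest under pre-p38i.

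The inhibitor alone, in MEFs without factors, went with higher levels of all 9 genes. H19 stood at 3077 and 2960 with p38i, a ratio of 1.99 to untreated MEFs and a log2 difference of 0.99 (SE 0.07), on the log2(value + 1) scale used throughout. Mest, a hydrolase-like protein of mesoderm, went from 31 and 36 to 98 and 88, the widest ratio of the 9 at 2.78 (log2 difference 1.45, SE 0.09). Igf2 went from 1888 and 1790 to 2803 and 2750 (log2 difference 0.59, SE 0.04). The treated libraries lay above both untreated ones for each gene, also where the gap was small. Peg3, a zinc finger protein, stood at 17 and 19 without and 30 and 31 with the inhibitor, and Grb10 at 321 and 325 against 476 and 449. Plagl1, a zinc finger transcription factor that arrests the cell cycle, ranged within the untreated group from 32 to 49 and stood at 57 and 53 with p38i. Igf2r (87 and 90 against 94 and 93), Cdkn1c (54 and 50 against 62 and 57) and Ndn (66 and 62 against 68 and 70) lay close together. The limma fit called 5 of the 9 higher and 0 lower, beside 17.9% of all genes called and 45.9% whose libraries did not overlap. From these numbers nothing is read, as the genes were chosen with this comparison known. Peg3 was no longer called when only those 4 libraries were fitted, and Plagl1 was called without the second untreated library, at a log2 difference of 0.76. Beside this the summed fibroblast markers were lower with p38i, at 9903 and 10018, the skeletal muscle markers went from 194 and 195 to 65 and 64 with Myod1 and Myog at 0, and the 15 macrophage markers went from 365 and 346 to 244 and 248.

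One day into induction under DMSO, the most abundant of the 9 were already far lower than in MEFs. H19 had a level of 184 and 175, a ratio of 0.118 to untreated MEFs (log2 difference -3.07, SE 0.07). Igf2 stood at 714 and 703, a ratio of 0.385, and Grb10 at 149 and 141, a ratio of 0.449. Both groups were wide apart in each of these genes. Peg3 was at 7 in both libraries. Mest went the other way, to 85 and 76, a ratio of 2.40, as did Igf2r at 127 and 115 and Plagl1 at 62 and 61. Cdkn1c at 46 and 48 and Ndn at 54 and 60 were a little below the MEF libraries. The fit called 3 members higher and 4 lower, beside 55.5% of all genes, and the 6 members below and 3 above did not overlap with MEFs, beside 69.2% of all genes whose libraries did not overlap. These groups differ in infection, factors and time together, which cannot be told apart. With quantile normalization the median difference of all genes in this comparison went from 0.14 to -0.07.

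From day 1 to day 7 under DMSO the ligand was lower at each later time, while H19 was highest in the middle of the week. Igf2 stood at 714 and 703 on day 1, 486 and 499 on day 3, 312 and 338 on day 5, then 156 and 163 on day 7. Each step was wider than the gap between libraries. H19 stood at 184 and 175, then 558 and 519, 529 and 545, and 297 and 348. Its days 3 and 5 overlapped, and day 7 lay above day 1 by a log2 difference of 0.84 (SE 0.07). The fit called 2 members higher over the week (H19 and Peg3) and 7 lower, beside 54.6% of all genes. Under p38i 2 were called higher and 6 lower beside 54.9%, and under pre-p38i 1 higher and 8 lower beside 63.6%.

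The ratio of H19 to Igf2 was higher on day 7 than on day 1 in each condition. Under DMSO it was 0.258 and 0.249 on day 1, 1.15 and 1.04 on day 3, 1.70 and 1.61 on day 5, then 1.90 and 2.13 on day 7. Under p38i it went from 0.201 and 0.182 to 2.26 and 2.48, and under pre-p38i from 0.350 and 0.345 to 2.29 and 2.40. On day 1 the 3 conditions did not overlap, with pre-p38i highest and p38i lowest, and on day 3 p38i was lowest at 0.828 and 0.770. On day 7 both inhibitor windows lay above DMSO and overlapped with each other, while the levels of H19 and of Igf2 themselves differed, as described next. In uninfected MEFs the ratio was 0.816 and 0.836 without and 1.10 and 1.08 with the inhibitor.

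**Figure D2:**
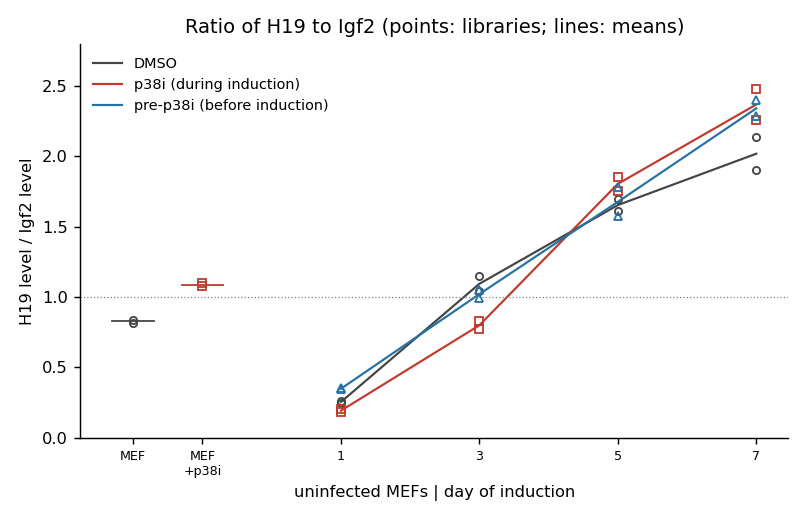
Ratio of the H19 level to the Igf2 level (linear axis, no unit) in uninfected MEFs and by day of induction under DMSO, p38i and pre-p38i, with a point for each library and lines joining the means. The ratio passes 1 after day 1 in all 3 conditions and reaches a mean of 2.02 (DMSO), 2.37 (p38i) and 2.34 (pre-p38i) on day 7.

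H19 took opposite courses in the 2 inhibitor windows. On day 1 it stood at 143 and 135 under p38i and 384 and 386 under pre-p38i, below and above the DMSO libraries at 184 and 175. By day 3 pre-p38i, at 529 and 554, overlapped with DMSO, while p38i lagged at 357 and 344. On day 5 the order had turned, with p38i at 702 and 652, DMSO at 529 and 545 and pre-p38i at 477 and 425. On day 7 p38i held 677 and 762 against 297 and 348 under DMSO and 256 and 247 under pre-p38i. The log2 difference from DMSO thus went from -0.37 on day 1 to 1.16 on day 7 under p38i, and from 1.10 to -0.35 under pre-p38i (SE 0.07). In the order of all 14 groups, 9 of 13 neighbouring pairs of H19 were apart, and those that overlapped included p38i on days 7 and 5, and pre-p38i on day 3, DMSO on day 3 and DMSO on day 5.

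Igf2 followed the same turn, but on day 1 pre-p38i alone stood apart from DMSO. On day 1 it stood at 1097 and 1119 under pre-p38i, while p38i at 711 and 741 overlapped with DMSO at 714 and 703. On day 3 p38i was at 431 and 447, below DMSO, and pre-p38i at 533 and 528, above it. On day 5 the levels were 378 and 372 under p38i and 268 and 270 under pre-p38i, either side of DMSO at 312 and 338. On day 7 p38i held 300 and 307, DMSO 156 and 163 and pre-p38i 112 and 103. The log2 differences from DMSO on day 7 were 0.92 for p38i and -0.57 for pre-p38i (SE 0.04). In the order of the 14 groups, 12 of 13 neighbouring pairs of Igf2 were apart, the most of the 9, against 4 for Peg3. Igf2 also had the highest mean of the 9 over all libraries, at 726, and Peg3 the lowest, at 12.4. The values are whole numbers, and no share over all genes was computed for this count or that of H19, so nothing is read from them.

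Igf2r, the receptor that carries Igf2 to the lysosome, was lowest under pre-p38i on every day and lower on day 7 than on day 1 in each condition. DMSO libraries had 127 and 115 on day 1, 145 and 133 on day 3, 103 and 114 on day 5, then 70 and 73 on day 7. Under p38i they had 123 and 123, 141 and 136, 137 and 130, and 104 and 103. Under pre-p38i they had 93 and 96, 96 and 94, 67 and 68, and 50 and 49. The pre-p38i libraries lay below DMSO on all 4 days, while p38i overlapped with DMSO on days 1 and 3 and lay above it on days 5 and 7. On day 7 the log2 differences were 0.53 under p38i and -0.52 under pre-p38i (SE 0.06). Airn, the antisense RNA that overlaps Igf2r, was listed at 4 or less in every library. Igf2os, antisense to Igf2, was also at 4 or less.

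Cdkn1c, the cyclin-dependent kinase inhibitor p57, was low by day 5 except under p38i. Under DMSO its libraries stood at 46 and 48, 59 and 40, 12 and 19, and 15 and 10 on days 1, 3, 5 and 7. Under p38i they stood at 35 and 31, 57 and 51, 37 and 38, and 24 and 28. Under pre-p38i they stood at 32 and 35, 21 and 20, 12 and 12, and 10 and 11. Both inhibitor windows were below DMSO on day 1, pre-p38i alone on day 3, and p38i was above DMSO on days 5 and 7, by log2 differences of 1.26 and 1.02 (SE 0.18). The pre-p38i and DMSO libraries overlapped on days 5 and 7, with a log2 difference of -0.21 on day 7.

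Plagl1, known to act on the H19 and Igf2 enhancers, had the widest gap of the 9 within a pair of libraries, relative to its mean. Under DMSO it stood at 62 and 61, 52 and 49, 26 and 43, and 24 and 24 from day 1 to day 7. Under p38i it stood at 63 and 64, 73 and 61, 50 and 47, and 36 and 48. Under pre-p38i it stood at 52 and 57, 54 and 49, 36 and 36, and 26 and 25. The p38i libraries lay above DMSO on every day, by a log2 difference of 0.05 on day 1 and 0.77 on day 7 (SE 0.18). On day 7 the second p38i library decided the call: without it the log2 difference was 0.57 and not called. Without the first DMSO library on day 5, the p38i difference there went from 0.52 to 0.17.

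Grb10 was lower on each later day in every condition, with little distance between them. Its levels under DMSO were 149 and 141, 99 and 100, 85 and 93, and 60 and 68. Under p38i they were 126 and 126, 98 and 99, 77 and 81, and 65 and 66, and under pre-p38i 141 and 153, 105 and 98, 80 and 77, and 54 and 53. On day 7 p38i overlapped with DMSO at a log2 difference of 0.04, and pre-p38i lay below it at a log2 difference of -0.25 (SE 0.06), or -0.16 without the second DMSO library, which ended its call.

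Ndn (necdin), a growth suppressor of the MAGE family, stood highest under p38i and lowest under pre-p38i at the end of the week. Under DMSO it stood at 54 and 60, 53 and 49, 42 and 45, and 29 and 32. Under p38i it stood at 58 and 55, 50 and 54, 57 and 50, and 45 and 41. Under pre-p38i it stood at 54 and 52, 36 and 39, 29 and 28, and 13 and 16. On day 1 both inhibitor conditions overlapped with DMSO, with p38i just above pre-p38i, and on day 7 no conditions overlapped, where the log2 differences from DMSO were 0.48 and -1.03 (SE 0.09).

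Mest had p38i lowest and pre-p38i highest on days 1 and 3. On day 1 it stood at 85 and 76 under DMSO, 51 and 53 under p38i and 113 and 112 under pre-p38i, and on day 3 at 26 and 23, 16 and 15, and 35 and 33. The conditions did not overlap on either day. On day 7 p38i, at 38 and 40, was level with DMSO at 39 and 39, and pre-p38i was below at 27 and 30 (log2 difference -0.44, SE 0.09). Mest shares 912 identical bases with the opposite-strand gene Copg2, which ran from 17 to 47, and the strand of the libraries is not stated, so reads of the 2 genes may be split between them and the values of Mest are uncertain. Igf2 likewise shares sequence with the annotated readthrough gene Gm49394, which is not used here.

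Peg3 had the lowest mean of the 9 over all libraries, and rounding makes 1 unit a large step. Its libraries lay between 7 and 13 in the reprogrammed groups except under pre-p38i on day 7, at 17 and 16, against 11 and 11 under DMSO and 10 and 12 under p38i. That pre-p38i difference was 0.54 on the log2 scale (SE 0.13), opposite in sign to those of H19, Igf2, Igf2r and Ndn.

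**Figure D3:**
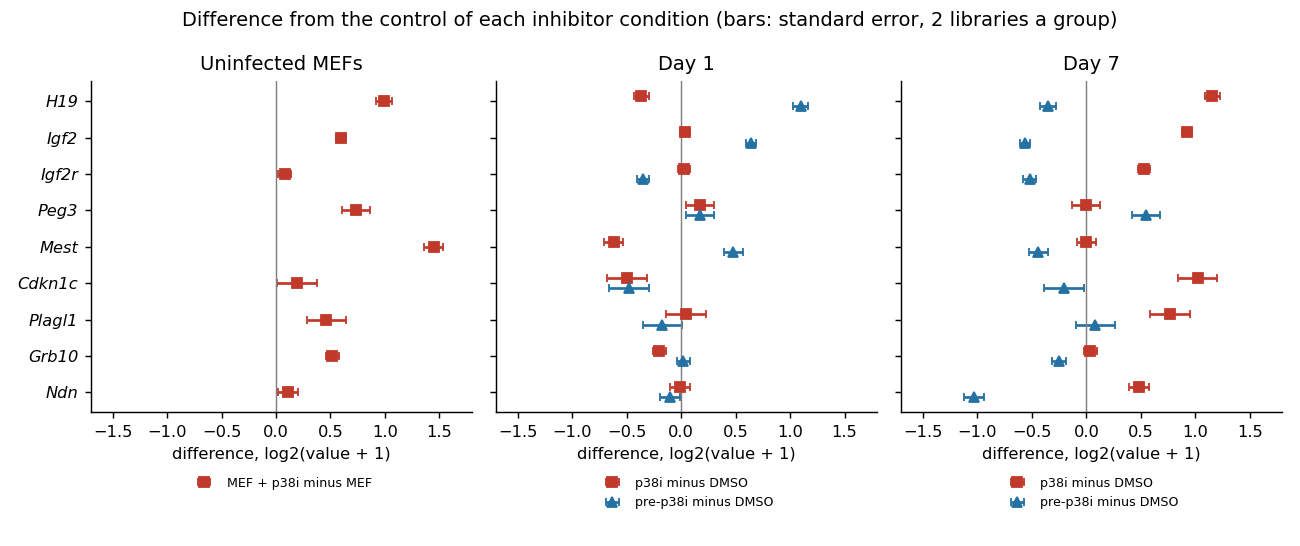
Difference of each gene from its control on the log2(value + 1) scale, with bars of 1 standard error from limma, in uninfected MEFs, on day 1 and on day 7 of induction. In uninfected MEFs all 9 lie above 0. On day 7 p38i (squares) reaches 1.16 for H19 and pre-p38i (triangles) -1.03 for Ndn, and 4 genes (H19, Igf2, Igf2r, Ndn) have non-overlapping libraries on opposite sides of DMSO. Of all genes, 59.3% do not overlap with DMSO under p38i and 58.7% under pre-p38i. The share on opposite sides was not computed, so nothing is read from the 4.

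Counted together on day 7, 6 of the 9 genes were called higher and 0 lower under p38i beside 34.1% of all genes called. Under pre-p38i 1 was called higher and 6 lower beside 29.9%, and p38i was called above pre-p38i in 8 and below it in 1, beside 54.3%. The libraries of 59.3% of all genes did not overlap between p38i and DMSO, and those of 58.7% between pre-p38i and DMSO. Nothing is read from these counts either. The summed level of the 9 genes on day 7 was 1299 and 1407 under p38i, 701 and 768 under DMSO and 565 and 550 under pre-p38i. When only the 4 libraries of each comparison were fitted, the calls of Cdkn1c, Plagl1 and Ndn under p38i and of H19, Mest and Grb10 under pre-p38i were lost. Fibroblast markers summed in the same order as the 9 genes, and epithelial markers in the reverse order, as given above. Of the 10 fibroblast markers, 7 had a higher mean under p38i than under DMSO, led by Vim at 2904 and 2840 against 1977 and 2076, and 3 a lower one (Col1a1, Col3a1 and Pdgfra), while all 10 were lower under pre-p38i. Both comparisons share the DMSO libraries.

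Across the 14 group means the 9 genes did not form a single pattern. The pair most alike was Igf2 and Grb10 (Pearson r = 0.954 over 14 groups of log2 values), followed by Cdkn1c and Ndn at 0.867 and Igf2 and Ndn at 0.836. H19 was closest to Peg3 at 0.777 and reached only 0.533 with its neighbour Igf2. Igf2r and Peg3 ran in opposite directions at -0.406. The groups share the time course and the loss of fibroblast markers, so these values describe the course and carry no p. Among 10668 genes with a mean of at least 5, those near to H19 included 2310022B05Rik at 0.945 and Sbf2 at 0.932. Nearest to Igf2 were Msrb3 at 0.980, Sept7 at 0.978 and Olfml2b at 0.976. The nearest to Ndn was Ltbp3 at 0.985, to Grb10 Foxc2 at 0.981, to Igf2r mt-Rnr1 at 0.960, to Plagl1 Ocrl at 0.950, to Cdkn1c Pdlim2 at 0.940, to Peg3 Nfix at 0.934 and to Mest Ssx2ip at 0.930. Without the log scale, 12 of the 27 nearest genes were kept.

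**Figure D4:**
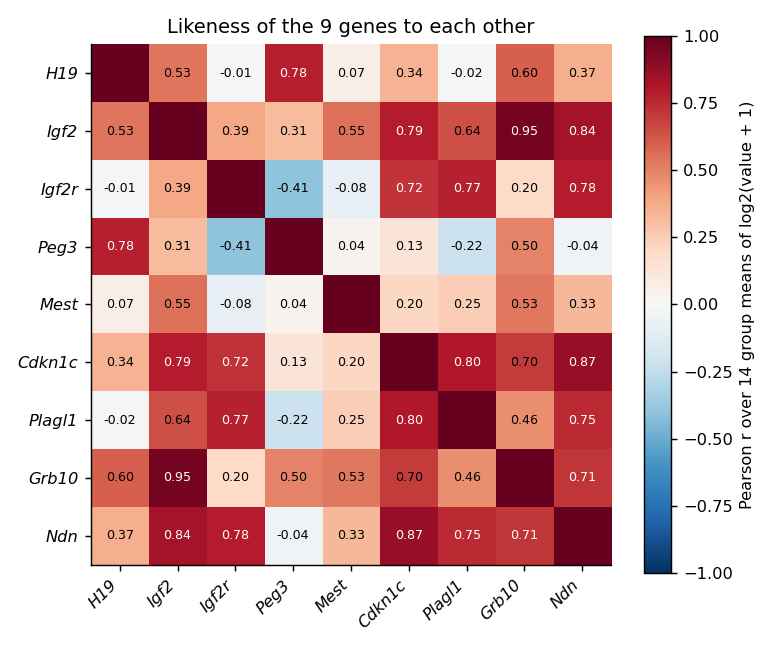
Pearson correlation of each pair of the 9 genes over the 14 group means of log2(value + 1), from -1 (blue) to 1 (red), with the value in each square. Igf2 and Grb10 are most alike at 0.95, and H19 is near 0 with Igf2r, Plagl1 and Mest.

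Listed genes of imprint maintenance, where called against DMSO, were lower under p38i (except 1 on day 5 with quantile normalization) and, apart from Zfp57 on day 7, higher under pre-p38i. Of 17 genes in this list 13 were tested. The list also holds Tet2, which oxidises methylated cytosine, and Tet3, so not all of its genes keep methylation in place. It was chosen with earlier results of these data known, so its counts are a description. Under p38i 5, 2, 8 and 7 of the 13 were called lower than DMSO on days 1, 3, 5 and 7 and 0 higher, beside 16.1%, 21.4%, 26.6% and 34.1% of all genes called. Of all genes, 12.6%, 16.2%, 18.7% and 17.6% were called lower and 3.47%, 5.22%, 7.87% and 16.5% higher. On days 1, 3 and 5 calls over all genes thus leaned lower too, before quantile normalization. Under pre-p38i 2, 8, 6 and 8 of the 13 were called higher and 0, 0, 0 and 1 lower, beside 11.6%, 20.6%, 25.6% and 29.9% of all genes called. Of all genes, 5.4%, 13.8%, 14.3% and 15.4% were called higher there and 6.24%, 6.87%, 11.3% and 14.5% lower. Set against each other on day 7, 8 of the 13 were called lower under p38i than under pre-p38i and 0 higher, beside 54.3% of all genes called. With quantile normalization the counts lower under p38i were 3, 2, 5 and 6, with 1 higher on day 5, and those under pre-p38i 2, 6, 6 and 8 higher. On day 7 the list's median log2 difference was -0.27 under p38i and 0.42 under pre-p38i, beside 0.00 and 0.05 for all genes tested. Uhrf1, which brings the maintenance methyltransferase to newly copied DNA, stood at 95 and 98 under DMSO, 41 and 42 under p38i and 153 and 150 under pre-p38i. Its log2 differences were -1.20 (SE 0.07, limma adjusted p = 1.42e-10) and 0.65 (SE 0.07, limma adjusted p = 4.23e-07). Dnmt1, that methyltransferase, stood at 91 and 87, 52 and 56, and 122 and 119 in the same groups, and was lower under p38i by a log2 difference of -0.71 (limma adjusted p = 1.32e-07). Tet2 stood at 21 and 18 under DMSO and 38 and 31 under pre-p38i (log2 difference 0.79, limma adjusted p = 0.00441). Zfp57 was the 1 gene lower in both windows, at 130 and 142 under DMSO, 91 and 98 under p38i and 105 and 109 under pre-p38i. In uninfected MEFs p38i went with 4 of the 13 called higher and 0 lower, beside 9.73% of all genes called higher and 8.15% lower. Dnmt1 led them, at 63 and 63 without and 92 and 87 with the inhibitor (log2 difference 0.50, limma adjusted p = 2.22e-05). The relation of these genes to the 9 was not tested.

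**Figure D5:**
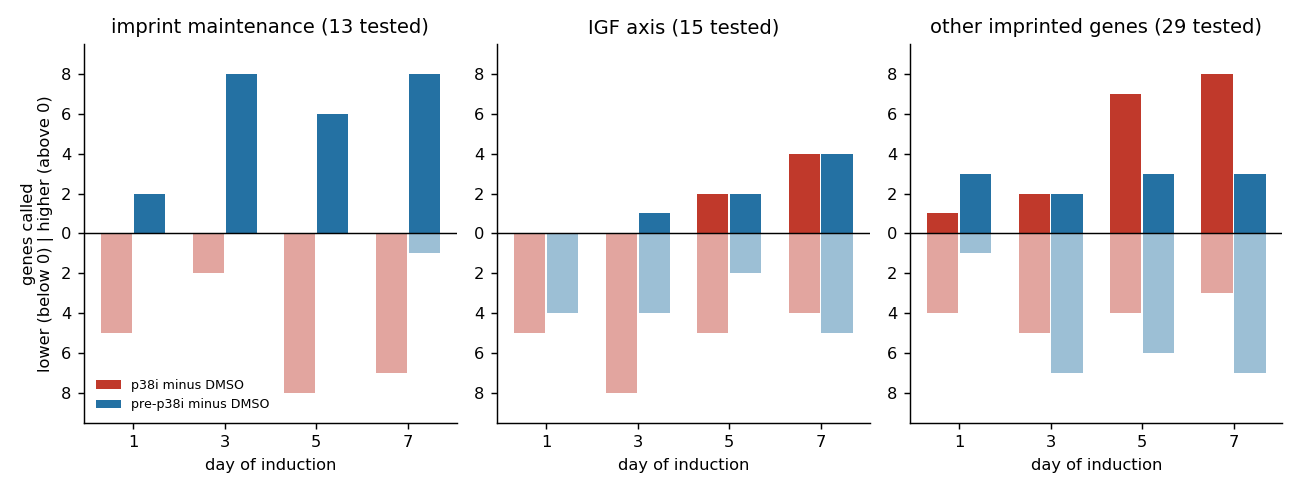
Number of listed genes called higher (full colour, above 0) or lower (pale, below 0) than DMSO by day of induction under p38i (red) and pre-p38i (blue), for genes of imprint maintenance (13 tested), the IGF axis (15 tested) and other imprinted genes (29 tested). Imprint maintenance genes are called lower and not higher under p38i on every day (1 is called higher on day 5 with quantile normalization), and on day 7 8 are higher and 1 lower under pre-p38i.

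The IGF axis holds the partners of Igf2. Of 17 listed genes 15 were tested, and on day 7 p38i had 4 called higher and 4 lower and pre-p38i 4 higher and 5 lower, beside 34.1% and 29.9% of all genes called in either direction. The list's median log2 differences were 0.05 and -0.06. Igfbp3, the binding protein that carries IGFs outside the cell, stood at 1783 and 1765 under DMSO, 1209 and 1257 under p38i and 487 and 488 under pre-p38i. The pre-p38i difference was -1.86 on the log2 scale (SE 0.06, limma adjusted p = 6.11e-14). Igfbp3 had been at 11 and 10 in untreated MEFs. Igfbp7 stood at 36 and 38, 23 and 15, and 9 and 12 on day 7 (pre-p38i log2 difference -1.74, limma adjusted p = 8.36e-09), and had been at 1164 and 1204 in MEFs. Igfbp2 went the other way under pre-p38i, at 26 and 30 under DMSO and 97 and 92 under pre-p38i (log2 difference 1.72, limma adjusted p = 8.13e-08). Igf2bp1, an RNA-binding protein named for its hold on the Igf2 messenger, stood at 9 and 7 under DMSO and 2 and 2 under p38i (log2 difference -1.58, limma adjusted p = 3.41e-05). Igfbp5 was lower under p38i as well, at 8 and 7 against 17 and 18 (log2 difference -1.12, limma adjusted p = 3.8e-06). In uninfected MEFs 5 of 15 were called lower with p38i and 0 higher, beside 17.9% of all genes called, led by Igfbp4 at 28 and 22 against 11 and 13 (log2 difference -0.99, limma adjusted p = 8.9e-05).

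Other imprinted genes were called in both directions in each window. Of 48 listed genes 29 were tested, and on day 7 p38i had 8 called higher and 3 lower and pre-p38i 3 higher and 7 lower, beside 34.1% and 29.9% of all genes called in either direction. The list's median log2 differences were 0.12 and -0.05, beside 0.00 and 0.05 for all genes tested. With quantile normalization these were 9 and 3, and 3 and 9. Osbpl5 stood at 21 and 19 under DMSO, 45 and 46 under p38i and 14 and 12 under pre-p38i, and was called in both windows (log2 differences 1.15 and -0.59, limma adjusted p = 8.49e-08 and 0.000241). Gnas, which encodes the stimulatory G protein subunit, stood at 1030 and 1058, 1405 and 1411, and 760 and 743 (log2 differences 0.43 and -0.47, limma adjusted p = 4.08e-07 and 1.09e-07). Cobl, an actin nucleator, was lower under pre-p38i, at 43 and 39 against 69 and 75 (log2 difference -0.80, limma adjusted p = 1.23e-07). Peg10 lay in the opposite directions, while Ddc lay below DMSO and Nnat above it in both windows. Peg10, a retrotransposon-derived gene expressed from the paternal copy, stood at 21 and 21 under DMSO, 5 and 5 under p38i and 50 and 44 under pre-p38i. Its log2 differences were -1.87 and 1.12 (SE 0.09, limma adjusted p = 2.19e-11 and 1.38e-08). Ddc, an imprinted neighbour of Grb10, stood at 40 and 38 under DMSO and 12 and 8 under p38i (log2 difference -1.89, limma adjusted p = 0.00154). Under pre-p38i Ddc stood at 26 and 25. Nnat stood at 87 and 81 under DMSO and 173 and 176 under pre-p38i (log2 difference 1.05, limma adjusted p = 6.01e-09). Under p38i Nnat stood at 117 and 106. Of the 6 genes at the Dlk1-Dio3 cluster 5 were tested, and on day 7 p38i had 3 higher and 1 lower and pre-p38i 4 higher and 0 lower. Dio3, the deiodinase that inactivates thyroid hormone, was listed at 0 on day 1 under DMSO and stood on day 7 at 42 and 47 under DMSO, 16 and 14 under p38i and 118 and 120 under pre-p38i. The non-coding Meg3 stood at 16 and 18, 36 and 39, and 39 and 44 in these groups and was called higher in both windows (log2 differences 1.10 and 1.24, limma adjusted p = 0.00222 and 0.000969). In uninfected MEFs Dlk1, a paternally expressed membrane protein, stood at 74 and 78 without and 182 and 179 with the inhibitor (log2 difference 1.24, limma adjusted p = 5.21e-05).

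Relatives of the 9 genes that are not imprinted were listed beside them, and 6 of 7 were tested. Cdkn1b, the kinase inhibitor p27 of the same family as Cdkn1c, stood on day 7 at 25 and 25 under DMSO, 25 and 24 under p38i and 48 and 47 under pre-p38i. It was called under pre-p38i (log2 difference 0.90, limma adjusted p = 3.35e-06), where Cdkn1c was not above DMSO. Grb14, of the same adaptor family as Grb10, stood at 11 and 11, 17 and 20, and 4 and 5 (log2 differences 0.70 and -1.13, limma adjusted p = 0.000198 and 7.91e-07). Cdkn1a, the kinase inhibitor p21, was lower in both windows, at 803 and 891, 767 and 743, and 706 and 666 (log2 differences -0.16 and -0.30, limma adjusted p = 0.00726 and 3.27e-05).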

How the data were processed

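RNA-seq was made from 28 libraries of poly(A)-selected mouse RNA in 14 groups of 2. Per the labels, the submitters used bcl2fastq, Bowtie2 2.2.5 and RSEM 1.3.0, with mm10 and hg38 named as builds. The deposited values are whole numbers that sum to nearly the same total in every library, so they were read as TPM that the authors cut to whole numbers and were treated as a score. That scale is inferred from the values. Every value column belonged to 1 library. The labels and the methods name different RNA extraction and library kits, and the strand and annotation are not given in the sources used here.

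Groups came from the labels. Values were taken as log2(value + 1) and 13230 genes with a mean of at least 1 were fitted in limma 3.58.1 (R 4.3.3) with 14 group means and a mean-variance trend. Calls are at a Benjamini-Hochberg adjusted p under 0.05 over all genes. The fit was tested on simulated data. The 9 genes and all lists were chosen with earlier results of these data known. For this reason no p is given for the 9, and the counts of the lists are a description with no set test. The listed genes named were taken, from the largest log2 difference on, among the 3 largest called in each list and comparison with a mean of at least 5, and other listed genes are examples. For H19, 1 of the 3 genes nearest in pattern is not reported here. Transcripts of the 9 genes were compared with all GENCODE M21 transcripts in BLAST 2.17.0+ (at least 95% identity over 200 bases). Alternatives were quantile normalization, a block for the replicate number, a fit of only the groups compared, each library left out, a minimum mean of 5 or none, and a pseudocount of 0.1.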

Additional observations from a re-analysis of the deposited data

Results flagged for a closer look

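Differences between the inhibitor windows, or between days within a window, are listed here. Groups of 2 libraries were not searched for a library far from the others.

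For the 9 genes the differences were not tested, and a gene is listed where all libraries of one condition lay on one side of DMSO and all those of the other on the opposite side. The share of all genes that meet this rule was not computed, so nothing is read from how many of the 9 do. As log2 differences of p38i minus pre-p38i, day 1 gave -1.46 for H19, -1.10 for Mest and 0.22 for Plagl1. That of Plagl1 was close to its SE of 0.18. Day 3 gave -0.27 for Igf2 and -1.08 for Mest. Day 5 gave 0.59 for H19, 0.48 for Igf2, 0.97 for Igf2r and 0.88 for Ndn. Day 7 gave 1.51 for H19, 1.49 for Igf2, 1.05 for Igf2r and 1.51 for Ndn. H19 and Igf2 thus changed sign between the early and the late days, whereas Igf2r and Ndn meet this rule on the late days alone. The p38i libraries of Igf2r already lay above those of pre-p38i on days 1 (0.38) and 3 (0.54), and those of Ndn on day 3 (0.46). Cdkn1c does not meet the rule, but its p38i libraries lay above pre-p38i on days 3, 5 and 7, by 1.35, 1.57 and 1.23.

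Some genes lay on opposite sides of DMSO on day 1 and day 7 within a window, and the change in the log2 difference was again not tested. Here too the share of all genes was not computed. Under p38i it was 1.52 for H19 and 1.52 for Cdkn1c. Under pre-p38i it was -1.45 for H19, -1.21 for Igf2, -0.92 for Mest and 0.26 for Plagl1, the last no larger than its SE of 0.26.

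Listed genes follow that were among the 3 largest called in their list against DMSO on day 7 in either window, with a mean of at least 5. Their difference between the windows was fitted in limma on the same libraries that picked them, so it is a description. Each gene given as lower or higher had a limma adjusted p under 0.05, beside 54.3% of all genes called. Lower under p38i, as log2 differences, were Peg10 (-3.00), Dio3 (-2.91), Igf2bp1 (-2.36), Igfbp5 (-2.0), Uhrf1 (-1.84), Atp10a (-1.81), Igfbp2 (-1.33), Ddc (-1.29), Dnmt1 (-1.14), Tet2 (-1.06), Cdkn1b (-0.93), Nnat (-0.64) and Tet3 (-0.36). Higher under p38i were Grb14 (1.83), Igfbp3 (1.34), Cobl (0.83), Igfbp7 (0.78) and Cdkn1a (0.14). Dlk1, Meg3, Rian and Zfp57 were taken by the same rule and not called. Over the whole lists, 11 other imprinted genes were called higher under p38i and 4 lower, beside 24.8% and 29.5% of all genes. The IGF axis had 8 higher and 4 lower, and the relatives 2 and 1. Imprint maintenance had 0 higher and 8 lower, and the Dlk1-Dio3 genes 0 and 1.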

How the results depend on the processing

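None of the 118 called differences of the 9 genes, out of 171 over 19 comparisons, changed sign under any alternative, and the calls that changed are named beside their genes or counted here. Fitting only the groups compared lost 39 of the calls and gained 1, with the same differences from fewer libraries. Under it the genes called came to 904 for p38i in uninfected MEFs, 853, 1044, 978 and 2749 for p38i minus DMSO on days 1, 3, 5 and 7, 359, 753, 1254 and 2285 for pre-p38i minus DMSO on those days, and 1838 for p38i minus pre-p38i on day 1. The listed genes called were 9 in MEFs, 6, 10 and 8 for p38i on days 1, 3 and 5, 3, 8, 13 and 21 for pre-p38i on days 1, 3, 5 and 7, and 14 for p38i minus pre-p38i on day 1. Quantile normalization lost 6 calls of the 9 genes and gained 5, the absence of a filter lost 2 and the pseudocount lost 1. Quantile normalization moved the share of higher calls among all genes called from 21.6%, 24.4% and 29.6% to 41.1%, 50% and 52.7% for p38i minus DMSO on days 1, 3 and 5, from 66.7% to 50.7% for pre-p38i on day 3, from 65.9% to 47.5% for day 1 under DMSO against MEFs, and from 59.9% to 45% over the week under p38i. Of 56 differences of named listed genes, 14 lost their call when only the groups compared were fitted, 5 with the pseudocount, 2 with quantile normalization and 1 without a filter.

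Leaving out each library in turn changed 53 of 756 calls of the 9 genes. Genes called for p38i in MEFs then ranged from 1515 to 1676 (2365 with all libraries), the lower end without the first treated library and 1571 without the second. For p38i on day 1 they ranged from 1150 to 1643 (2128), at 1150 without the first DMSO library and 1299 without the second p38i library. For pre-p38i on day 1 they ranged from 856 to 950 (1539), moved by each of the 4 libraries. For pre-p38i on day 3 they ranged from 1568 to 2050 (2729), at 1568 and 1776 without the first and second pre-p38i library and 1698 without the first DMSO library. Listed genes called there ranged from 14 to 18 (24), at 14 without the first DMSO or the second pre-p38i library.

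No shared effect of the replicate number was seen, since deviations of equally numbered libraries correlated, over 91 pairs of groups, at -0.08 to 0.09. That cannot show whether equally numbered libraries came from the same culture. With the replicate number as a block, p38i minus DMSO on day 7 had 4490 genes called against 4509, and of the 9 genes Grb10 on day 5 under p38i alone lost its call.

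Depth is unknown, and the cut to whole numbers makes 1 TPM a wide step for genes as low as Peg3.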
